A study of Mus musculus with 16 samples.

Results

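The RNA levels of 8 germline genes, Tuba3b, Tex101, Tex19.1, Rhox5, Tdrd9, Xlr3c, Ctag2l1 and Lncenc1, were followed in a mouse melanoma carrying a guide RNA against Nlrc5 or a scramble guide. They are 8 of the 15653 genes listed in at least 1 of the 3 deposited tables. The 8 were picked because they had been seen to differ between guides in these same tables, so their guide differences are given as a description, with no test, and no count of them supports a finding. Their name as methylation-silenced genes is background knowledge: the tables hold RNA values, and DNA methylation was not analysed here.

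Germline genes are transcribed in testis, ovary, placenta or the early embryo and are shut off in most body cells. Many of them depend on methylation of CpG dinucleotides at the promoter for that silence, often together with the repressive complex PRC1.6 and histone H3 lysine 9 methyltransferases, and tumours frequently express them as cancer-testis genes. Loss of DNA methylation, by drugs or by loss of a DNA methyltransferase, is known to switch many of them on, which is why they serve as readouts of methylation.

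The libraries came from B16F10, a melanoma line of the C57BL/6 mouse, in 2 derivatives called B16F10-TDM and B16F10-TDMa, names that the labels do not spell out. All cells were grown in DMEM with fetal bovine serum and had been transduced with either sgScramble or sgNlrc5, and the series title places the work under demethylation and activation of Nlrc5. The 6 groups were TDM culture with sgScramble (n = 2) and with sgNlrc5 (n = 2), TDMa culture with sgScramble (n = 2) and with sgNlrc5 (n = 2), and TDMa tumours with sgScramble (n = 4) and with sgNlrc5 (n = 4). Strain, sex and age of the animals that bore the tumours are not given in the sources used here, nor is it stated whether a line is 1 clone. The labels leave unsaid whether the replicates of a group were grown or taken separately, so a p-value here reflects only how far these samples spread.

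The reads recovered over the listed genes ran from 12183889 to 16390886 per library. Nlrc5, a transactivator of MHC class I genes, was higher with sgNlrc5 in all 3 settings. Its normalised counts were 22.9 and 12.7 against 57.4 and 78.6 in TDM culture, 254 and 242 against 3146 and 3142 in TDMa culture, and 577 ± 243 against 3916 ± 445 (SD, n = 4 per guide) in tumours. The limma log2 differences were 1.91 ± 0.34 (SE, adjusted p = 0.012), 3.66 ± 0.061 and 2.88 ± 0.28, and the TDM call ended without the intensity trend and without sgNlrc5 replicate 2. All 7 melanoma markers (Pmel, Tyr, Tyrp1, Dct, Mlana, Mitf, Sox10) were listed in every table. Of 7 markers of testis germ and Sertoli cells, 2, 1 and 2 were listed in TDM culture, TDMa culture and tumours, and of the germ cell markers Ddx4, Dazl, Sycp3 and Prm1 only Ddx4 was among them, in tumours alone. Ddx4 stood there at 3.4, 2.9, 3.0 and 3.5 with sgScramble and at 15.04, 9.7, 2.7 and 7.0 with sgNlrc5, on 13 and 34 reads, too low to be tested and with overlap.

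The promoters of 5 of the genes are shown first because the genes differ in the very feature that DNA methylation acts on, the CpG. The sequences are from RefSeq on the build GRCm38.p6, an earlier build than the GRCm39 named for the deposited tables. Each is the 250 bases before the RefSeq start, written 5′ to 3′ along the gene, with every CpG in capitals. The windows are chr6:145615713-145615962 (plus strand) for Tuba3b, chr7:24672051-24672300 (minus strand) for Tex101, chr11:121145893-121146142 (plus strand) for Tex19.1, chrX:73265391-73265640 (minus strand) for Xlr3c and chr13:97434720-97434969 (plus strand) for Lncenc1. Tuba3b, Tex101 and Tex19.1 carry more CpGs than Xlr3c, and Lncenc1 carries the fewest of the 5.
Tuba3b: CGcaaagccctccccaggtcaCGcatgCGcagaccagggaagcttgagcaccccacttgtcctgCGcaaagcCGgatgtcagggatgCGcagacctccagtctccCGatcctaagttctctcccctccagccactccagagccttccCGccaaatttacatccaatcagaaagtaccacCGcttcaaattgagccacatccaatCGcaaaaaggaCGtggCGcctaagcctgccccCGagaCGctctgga
Tex101: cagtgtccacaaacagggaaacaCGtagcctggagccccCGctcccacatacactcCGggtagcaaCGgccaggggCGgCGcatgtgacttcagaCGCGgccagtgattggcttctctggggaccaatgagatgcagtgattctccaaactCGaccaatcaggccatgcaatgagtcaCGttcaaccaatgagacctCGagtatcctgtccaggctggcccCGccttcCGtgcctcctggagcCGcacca
Tex19.1: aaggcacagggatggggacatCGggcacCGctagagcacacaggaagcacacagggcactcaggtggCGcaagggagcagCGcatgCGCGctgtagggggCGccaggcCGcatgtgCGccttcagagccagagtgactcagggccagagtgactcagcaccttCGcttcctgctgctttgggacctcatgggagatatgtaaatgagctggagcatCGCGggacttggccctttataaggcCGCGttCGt
Xlr3c: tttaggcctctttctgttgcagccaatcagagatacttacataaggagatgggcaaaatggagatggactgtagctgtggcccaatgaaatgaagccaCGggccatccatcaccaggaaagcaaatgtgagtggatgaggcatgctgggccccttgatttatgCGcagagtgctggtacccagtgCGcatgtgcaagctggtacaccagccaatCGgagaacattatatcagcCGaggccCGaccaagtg
Lncenc1: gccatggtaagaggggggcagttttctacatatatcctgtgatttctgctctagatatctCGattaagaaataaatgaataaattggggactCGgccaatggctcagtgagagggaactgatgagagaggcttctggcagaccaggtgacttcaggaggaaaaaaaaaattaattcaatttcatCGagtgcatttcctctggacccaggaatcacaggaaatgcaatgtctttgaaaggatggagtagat

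All 8 genes matched a RefSeq promoter. Among 32851 promoter windows of that length the median was 6 CpG dinucleotides, with quartiles of 2 and 16. Tex19.1 had 15, Tuba3b and Tex101 had 14 each, Ctag2l1 had 11 and Tdrd9 had 8. Xlr3c sat at the median with 6, and Rhox5 with 4 and Lncenc1 with 3 lay below it. Hence 5 of the 8 lay above the median of all windows and none above its upper quartile. The Rhox5 window is not printed, because its RefSeq start lay 50234 bases from the nearest start in the GENCODE annotation, whereas for Tuba3b the gap was 206 bases and for the other 6 genes it was 0.

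**Figure D1:**
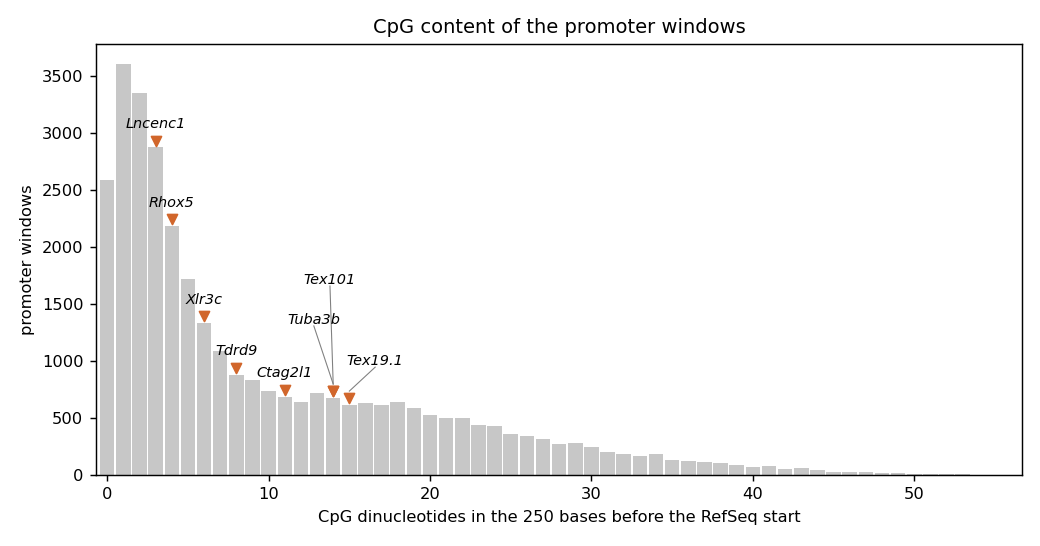
Histogram of the number of CpG dinucleotides (x axis) in the 250 bases before the RefSeq start, with the number of promoter windows on the y axis (grey bars, 32851 windows). Orange triangles mark the 8 germline genes, which run from 3 CpGs in Lncenc1 to 15 in Tex19.1. The Rhox5 window lies far from the nearest GENCODE start.

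3 motifs were searched as plain letters on both strands of the same windows. CACGTG, the E-box letters bound by MYC family factors and by the MGA and MAX pair of PRC1.6, occurred in Tdrd9 and Ctag2l1, and in 6.02% of all windows. GGCGGG, the GC-box letters of SP1 family factors, occurred in Tuba3b, Tex101, Rhox5 and Ctag2l1, and in 32.5% of all windows. The Rhox5 window lies far from the nearest GENCODE start, as given above. GCGGGA, a core of E2F sites, occurred in Tuba3b and Tex19.1, and in 16.9% of all windows. The last 2 motifs can overlap each other, and a match is a description of letters, not of a bound site.

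Some of these genes have near copies, and the authors' counting could divide reads among them. Of the windows of 50 bases along its transcripts (GENCODE release on GRCm38), Xlr3c shared 72.1% with another gene, mostly Xlr3b (66.2%) and Xlr3a (43.7%). Ctag2l1 shared 70.4%, mostly with Gm15363 (61.9%), and Tuba3b shared 29.6%, mostly with Tuba3a (27.4%). Tex19.1 shared 2.67% with Tex19.2, and Tex101, Rhox5, Tdrd9 and Lncenc1 shared 0%. The values of Xlr3c and Ctag2l1, and in part of Tuba3b, are therefore uncertain as to which copy they count.

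TDM culture listed all 8 genes and had the most of them at appreciable levels. Tuba3b, Lncenc1, Ctag2l1 and Tex101 were higher with sgNlrc5, Tex19.1 was lower, Rhox5 and Xlr3c were high and nearly level between guides, and Tdrd9 was at the edge of detection. A filter on low values asked for a mean of 10 or more normalised counts over the libraries of a table. Of the 7 genes that passed it, 4 were called higher by limma, where 0.284% of all 11989 tested genes were, and 1 was called lower, where 0.234% were. As the genes were chosen on this contrast, nothing is read from these shares. Without the intensity trend limma called 2 genes in the whole table.

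Tuba3b encodes an alpha-tubulin found mainly in testis. Its normalised counts were 58.2 and 64.7 in the sgScramble libraries and 983 and 985 in the sgNlrc5 libraries, resting on 127 and 1914 reads in all. The groups lay far apart, and each pair of replicates nearly coincided. The log2 difference was 3.98 ± 0.12 (SE), or 16.01-fold between the means.

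Lncenc1, a long noncoding RNA of naive embryonic stem cells, stood at 43.2 and 39.2 with sgScramble and at 250 and 296 with sgNlrc5, a log2 difference of 2.69 ± 0.18. Ctag2l1, of the family of the cancer-testis antigens NY-ESO-1 and LAGE-1, stood at 27.3 and 30.8 with sgScramble and at 79.9 and 80.5 with sgNlrc5, a log2 difference of 1.44 ± 0.25. Both genes had low but plainly detected sgScramble levels, and neither overlapped between guides.

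Tex101 encodes a surface glycoprotein of germ cells that is needed for sperm to reach the egg. In TDM culture it was already abundant, with normalised counts of 4009 and 4053 with sgScramble against 5461 and 5288 with sgNlrc5. The groups did not overlap, but the ratio of the means was 1.33 and the log2 difference was 0.41 ± 0.045, a much smaller change than those of the 3 genes above.

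Tex19.1, which restrains retrotransposons in germ cells, placenta and pluripotent cells, went the other way. Its normalised counts were 324 and 337 with sgScramble and 87.7 and 83.3 with sgNlrc5. This was a log2 difference of -1.94 ± 0.14, with means 3.86-fold lower under sgNlrc5 and no overlap.

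Rhox5, an X-linked homeobox gene of Sertoli cells, epididymis and placenta, was the most abundant of the 8, at 8886 and 9037 with sgScramble and 10166 and 9142 with sgNlrc5. Xlr3c, of an X-linked gene family related to the synaptonemal complex protein SYCP3, stood at 795 and 807 against 890 and 812. For both the sgNlrc5 libraries lay just above the sgScramble libraries, with log2 differences of 0.11 ± 0.049 and 0.085 ± 0.074. Without sgNlrc5 replicate 1 these were 0.029 and 0.019. Groups that do not overlap are common with 2 libraries on each side: 19.3% of tested genes were separated upwards and 19.3% downwards.

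Tdrd9, a helicase of the piRNA pathway that silences transposons, did not pass the filter. Its normalised counts were 6.2 and 5.3 with sgScramble and 3.4 and 14.2 with sgNlrc5, on 12 and 18 reads. The groups overlapped, and no difference was detectable at this depth.

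**Figure D2:**
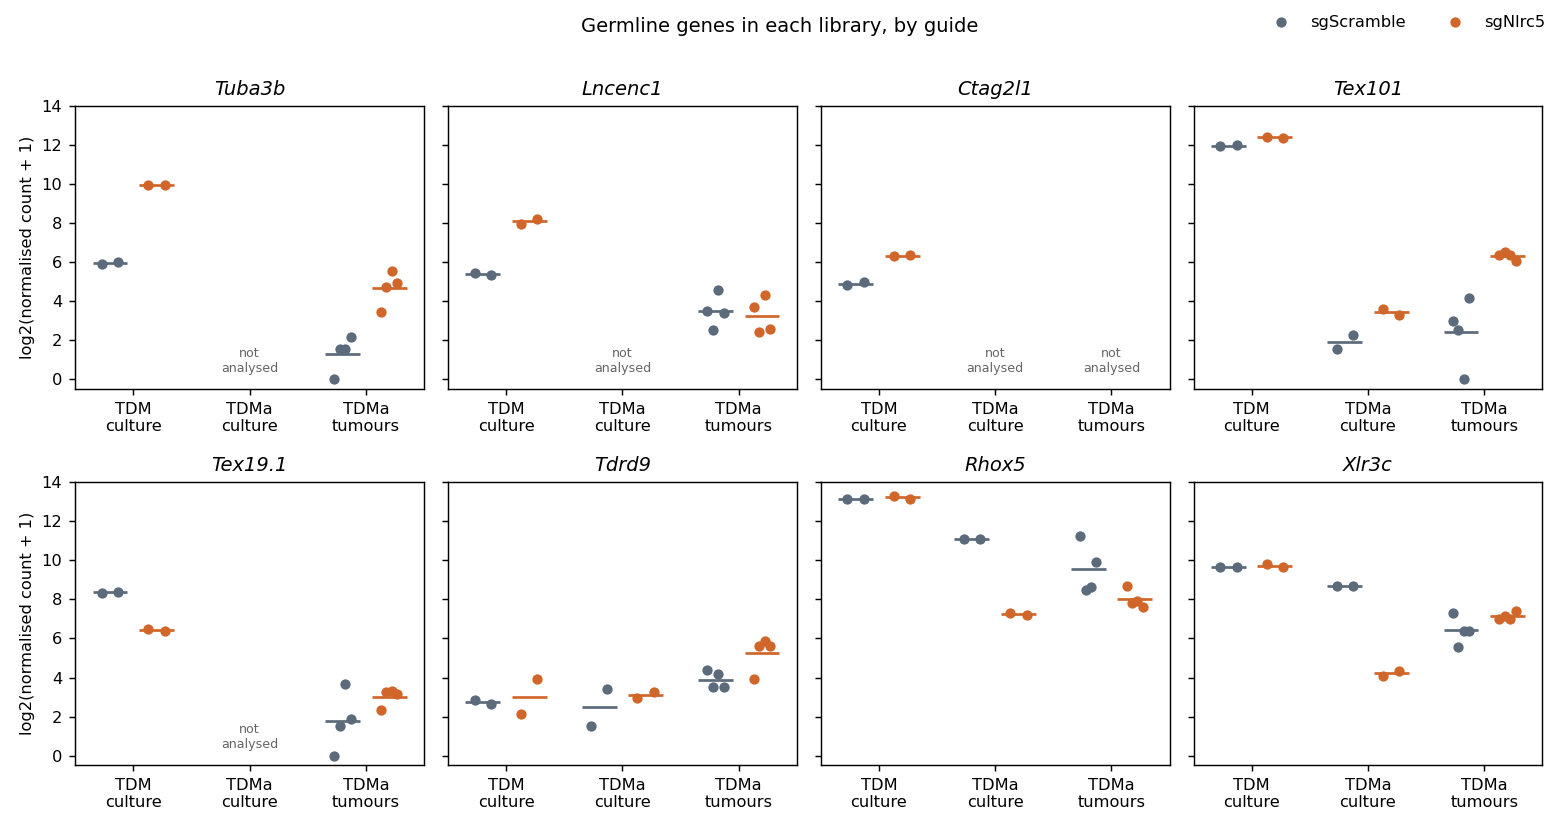
Normalised counts per library of the 8 germline genes (y axis, log2(normalised count + 1)) in TDM culture, TDMa culture and TDMa tumours, with sgScramble and sgNlrc5 libraries as points and group means as bars. Tuba3b in TDM culture goes from 58.2 and 64.7 to 983 and 985, while in TDMa culture Rhox5 goes from 2151 and 2195 to 155 and 144.

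TDMa culture listed 4 of the 8 genes, and only Rhox5 and Xlr3c passed the filter. Both were far lower with sgNlrc5, the reverse of their small differences in TDM culture. These 2 of 2 were called lower by limma, where 16.9% of the 12138 tested genes were called lower. Their guides did not overlap, as was the case downwards for 33.0% and upwards for 33.3% of tested genes, and nothing is read from these counts either. Tuba3b, Lncenc1, Ctag2l1 and Tex19.1 were not listed for TDMa culture and so were not analysed there. No gene listed there had fewer than 20 reads summed over its libraries.

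Rhox5 stood at 2151 and 2195 with sgScramble and at 155 and 144 with sgNlrc5. On the log2 scale the difference was -3.85 ± 0.076, or 14.5-fold lower between the means. Xlr3c stood at 414 and 410 against 15.7 and 19.4, with a log2 difference of -4.48 ± 0.20, or 23.5-fold lower. Replicates of both genes agreed closely, and the gap between guides was many times their spread.

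Tex101 was near the detection limit in TDMa culture, at 1.9 and 3.8 with sgScramble and 11.2 and 8.7 with sgNlrc5, on 6 and 19 reads. Tdrd9 stood at 1.9 and 9.5 against 6.7 and 8.7, on 12 and 15 reads. The sgNlrc5 libraries of Tex101 lay above the sgScramble libraries, while those of Tdrd9 overlapped them, and neither gene had enough reads to pass the filter.

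**Figure D3:**
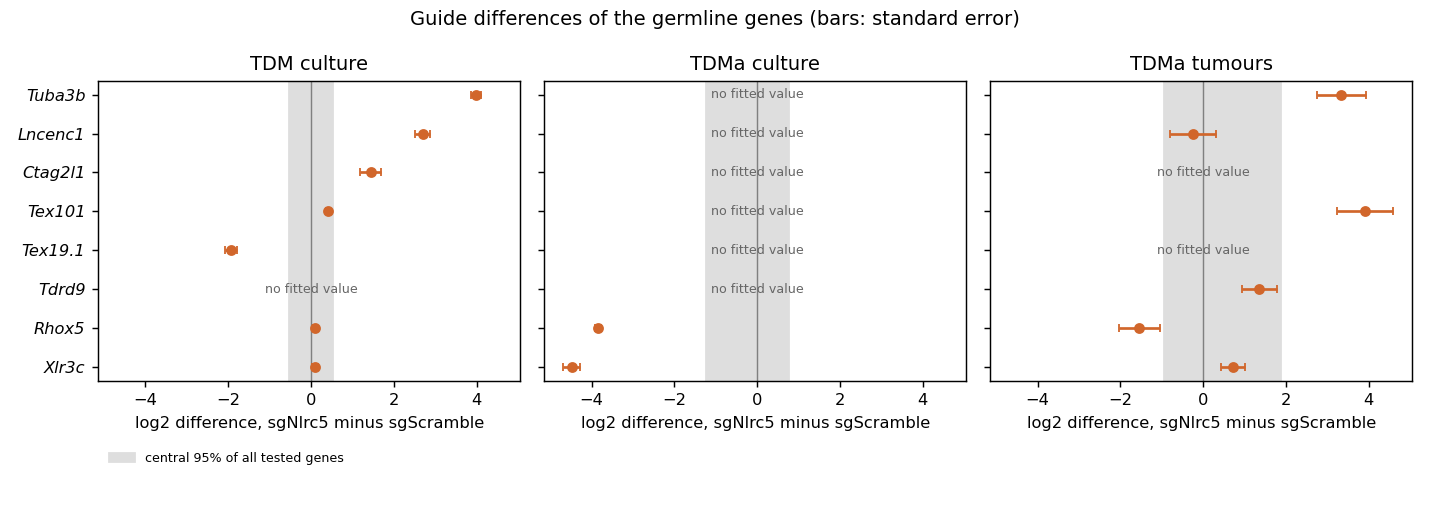
Log2 difference between guides, sgNlrc5 minus sgScramble, with its standard error (x axis) for each germline gene that passed the filter (y axis), by table, with the central 95% of all tested genes as a shaded band. Rhox5 and Xlr3c sit at -3.85 and -4.48 in TDMa culture and near 0 in TDM culture, and Tuba3b sits at 3.98 in TDM culture and 3.34 in tumours.

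The scramble-guide libraries of the culture lines stood at different levels for several of these genes. The tables were normalised separately, so the sgScramble levels are set side by side without a test. Rhox5 averaged 8962 in TDM and 2173 in TDMa, and Xlr3c 801 and 412. The gap was widest for Tex101, whose sgScramble libraries stood at 4009 and 4053 in TDM and at 1.9 and 3.8 in TDMa. Among the other germline genes Nxf3, an X-linked RNA export factor, had 468 and 449 in TDM and 3.8 and 11.4 in TDMa, and Zcwpw1, a meiotic reader of histone methylation, averaged 866 in TDM and 67.3 in TDMa. Fkbp6, a co-chaperone of the piRNA pathway, lay at like levels, 3275 and 3368.

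**Figure D4:**
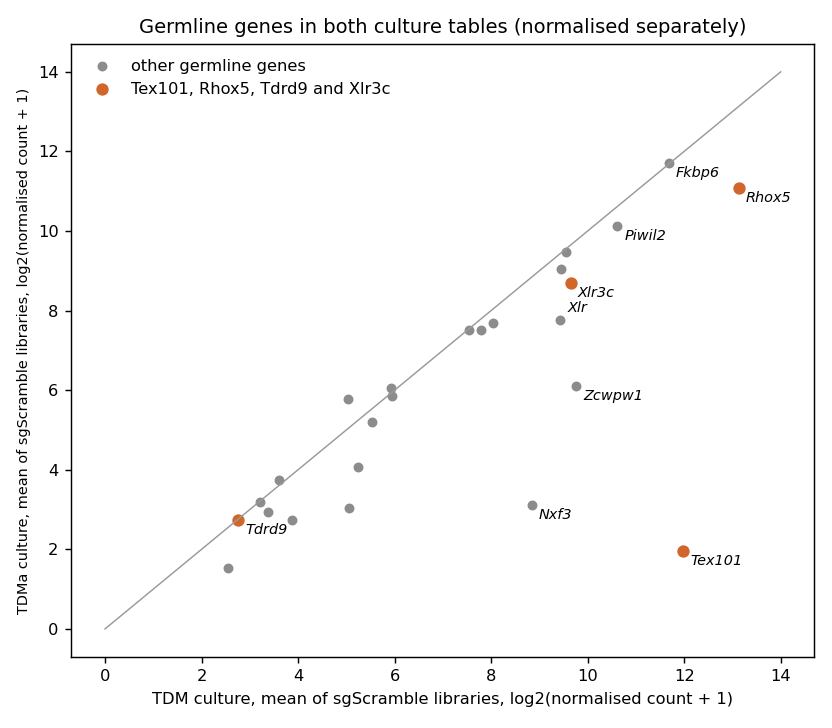
Mean of the sgScramble libraries in TDM culture (x axis) and TDMa culture (y axis), both as log2(normalised count + 1), for germline genes listed in both tables, orange for the 4 picked genes and grey for other germline genes. The line marks equal values in tables that were normalised separately, and Tex101, Nxf3 and Zcwpw1 lie far below it.

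TDMa tumours listed 7 of the 8 genes, and 6 passed the filter. Ctag2l1 was not listed and so was not analysed there, and no listed gene had fewer than 40 reads summed over the tumours. Tex101 and Tuba3b were higher with sgNlrc5 with no overlap between groups, Tdrd9 and Xlr3c were higher with overlapping groups, and Rhox5 was lower with overlapping groups. Limma called 3 of the 6 higher, where 19.7% of the 13385 tested genes were called higher, and 1 lower, where 19.7% were. In bulk tumours fewer cells of a type and less RNA per cell cannot be told apart.

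Tex101 had normalised counts of 6.9, 4.8, 0 and 16.8 in the sgScramble tumours and 81.2, 90.1, 82.3 and 66.3 in the sgNlrc5 tumours. Every sgNlrc5 tumour lay above every sgScramble tumour, on 322 reads against 30, and the gene passed the filter only through the sgNlrc5 group. The log2 difference was 3.92 ± 0.67, and the ratio of the means was 11.3. It ran from 3.11 to 4.49 when each tumour was left out in turn, and it was 2.99 with a pseudocount of 5, so its size depends on how the near-zero sgScramble values are handled.

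Tuba3b stood at 0, 1.9, 2.0 and 3.5 in sgScramble tumours and at 10.0, 25.7, 45.2 and 29.1 in sgNlrc5 tumours. The groups did not overlap, but the 8 sgScramble reads lie close to nothing, and the gene passed the filter only through the sgNlrc5 group. Its log2 difference was 3.34 ± 0.60 with a pseudocount of 1 and 2.15 with a pseudocount of 5, so its size is loosely fixed. Groups separated upwards in 18.1% of all tested genes.

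Rhox5 had 2392, 353, 392 and 958 in sgScramble tumours and 415, 227, 238 and 196 in sgNlrc5 tumours. The sgScramble tumours spread widely, and the highest sgNlrc5 tumour exceeded the lower 2 of them. The log2 difference was -1.54 ± 0.49, and it was -0.98 without sgScramble replicate 1, the highest tumour. The direction was that of TDMa culture, at a smaller size.

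Xlr3c did not follow its culture pattern. Its normalised counts were 160, 46.8, 82.5 and 81.1 with sgScramble and 128, 143, 125 and 167 with sgNlrc5. All but 1 of the sgScramble tumours lay below the sgNlrc5 range, and the log2 difference was 0.72 ± 0.29. It was 0.45 without sgScramble replicate 2, the lowest tumour.

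Tdrd9 stood at 19.5, 10.5, 16.9 and 10.6 in sgScramble tumours and at 14.04, 48.3, 57.0 and 48.2 in sgNlrc5 tumours. 3 sgNlrc5 tumours lay above all sgScramble tumours and the other, replicate 1, lay among them. The log2 difference was 1.358 ± 0.43.

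Lncenc1, which had been 6.62-fold higher in TDM culture, stood at 10.3, 4.8, 22.9 and 9.7 with sgScramble and at 12.03, 4.3, 19.0 and 5.0 with sgNlrc5. The groups overlapped throughout, and the log2 difference of -0.25 ± 0.56 was under its error and changed sign without sgNlrc5 replicate 2. Tex19.1, under the filter, stood at 0, 1.9, 11.9 and 2.6 against 4.0, 8.6, 9.0 and 8.0, on 17 and 30 reads, again with overlap.

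The sgNlrc5 tumours also differed in their cell type markers. The summed normalised counts of 7 T cell markers ran from 42.0 to 69.6 with sgScramble and from 251 to 1007 with sgNlrc5, and those of 7 macrophage markers from 2619 to 3752 and from 9561 to 12145. Sums of 7 fibroblast markers ran from 302 to 625 and from 781 to 934, and 6 of 7 endothelial markers from 6676 to 7805 and from 8177 to 9604. The 7 melanoma markers overlapped, at 565550 to 637913 and 597997 to 953576. In TDMa culture 5 fibroblast markers summed to 749 to 788 with sgScramble and 581 to 614 with sgNlrc5. The 2 endothelial markers listed there gave 3781 to 3823 and 4150 to 4309. A lone macrophage marker gave 700 to 760 and 1023 to 1069, and 0 of 7 T cell markers were listed. Apart from the T cell sums, these sums are therefore not of other cell types alone. The T cell sums are set apart for the TDMa line only. In TDM culture 1 of the 7 T cell markers, Cd3d, was listed, at 487 to 566 with sgScramble and 549 to 581 with sgNlrc5. Scaled to the summed melanoma markers, the tumour log2 differences were 3.71 for Tex101, 3.19 for Tuba3b and 1.14 for Tdrd9. They were 0.50 for Xlr3c, -1.77 for Rhox5 and -0.44 for Lncenc1. Each kept its sign, but the melanoma sums differed too little between guides to reverse the larger differences. In TDMa culture those sums were themselves higher with sgNlrc5, at 202922 to 203883 against 147031 to 149053. The scaling therefore cannot separate cell mix from guide, and the part of other cell types in these differences was not tested.

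**Figure D5:**
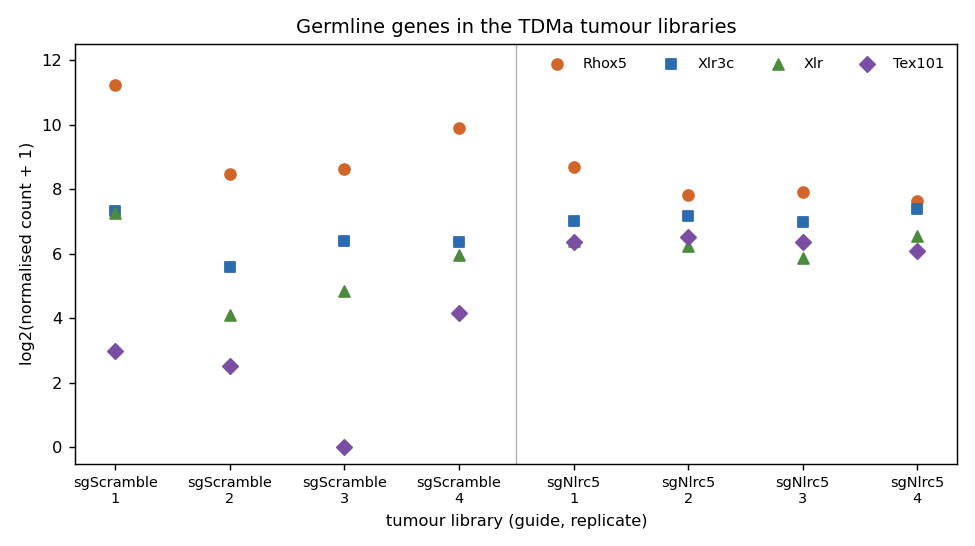
Normalised counts (y axis, log2(normalised count + 1)) of Rhox5, Xlr3c, Tex101 and the related gene Xlr in each of the 8 TDMa tumours (x axis, guide and replicate), 1 point per gene and tumour. Tex101 separates the guides, whereas the Rhox5 range with sgScramble, 353 to 2392, overlaps that with sgNlrc5, 196 to 415.

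Some close relatives of Xlr3c were listed too, and their differences were not tested against those of Xlr3c. Xlr3a averaged 204 with sgScramble and 283 with sgNlrc5 in TDMa culture, a rise of 0.47 ± 0.12 on the log2 scale (limma adjusted p = 0.0039), where Xlr3c was 23.5-fold lower. Xlr, the founding gene of that family, fell there from 216 to 124 (-0.79 ± 0.14, limma adjusted p = 2.6e-04). In TDM culture Xlr3a had 262 against 315, Xlr3b 384 against 400 and Xlr4b 266 against 239, none of which passed the test. In tumours Xlr3b had 12.8 against 23.7 (1.08 ± 0.49, limma adjusted p = 0.10) and Xlr3a 392 against 361 (limma adjusted p = 0.47), and without sgScramble replicate 4 Xlr3b passed at 1.49. Xlr stood at 153, 16.2, 27.8 and 61.7 in sgScramble tumours and at 83.2, 74.0, 57.9 and 93.4 in sgNlrc5 tumours, which overlapped (0.72 ± 0.52, limma adjusted p = 0.30).

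Other Rhox genes were present at low levels. Rhox2d stood at 10.3, 4.8, 10.9 and 2.6 in sgScramble tumours and at 13.04, 15.01, 16.3 and 35.2 in sgNlrc5 tumours, with no overlap. It passed the filter only through the sgNlrc5 group and rose by 1.41 ± 0.49 (limma adjusted p = 0.039), and the call ended without sgScramble replicate 2 or 4 and without sgNlrc5 replicate 2, 3 or 4. In TDM culture Rhox2g had 20.3 and 19.09 against 6.7 and 1.9 (-2.13 ± 0.59, limma adjusted p = 0.19), Rhox2d 7.9 and 6.4 against 15.7 and 20.8 (1.24 ± 0.49, adjusted p = 0.46), and Rhox2h 12.3 and 13.8 against 15.7 and 11.4. None of the 3 passed the test. In that culture Rhox2g passed the filter only through the sgScramble group, on 41 reads against 8. Rhox2d passed it only through the sgNlrc5 group, on 15 reads against 36. The Rhox2 genes are near copies of each other, so their division of reads is uncertain.

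A list of 207 other germline names, of the piRNA pathway, meiosis, germ cell regulation, the X chromosome and testis, gave the surroundings of the 8. Of these names 45 were listed in at least 1 table: 34 in TDM culture, 25 in TDMa culture and 35 in tumours. TDM and TDMa culture shared 21, which is 61.8% of the first and 84% of the second.

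In TDM culture 0 of 29 tested genes of that list were called by limma, against 0.517% of all genes. At that share 0 calls are likely in so short a list, and nothing is read from them. 6 of the 29 had an unadjusted p under 0.05, beside 1084 of all 11989 tested genes, and voom on the recovered reads also called 0. Their median log2 difference was 0.047, with a range of -1.19 to 0.64, beside a median of 0.00033 over all tested genes.

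In TDMa culture 4 of 18 tested genes rose and 3 fell, together 38.9%, against 34.2% of all genes, and their median was -0.19. Cpeb1, a translational regulator of oocytes, rose from 142 to 289 (1.01 ± 0.13, limma adjusted p = 7.6e-06). Fkbp6 rose from 3368 to 4086 and Piwil2, a PIWI protein that binds piRNAs, from 1108 to 1310, by 0.28 and 0.24, and Xlr3a rose as given above. Xlr fell, as did Zcwpw1, from 67.3 to 37.6 (-0.82 ± 0.25), and Dnmt3c, the rodent methyltransferase of male germ cells, from 17.6 to 5.56 (-1.58 ± 0.52). Dnmt3c passed the filter only through the sgScramble group. The call of Zcwpw1 ended without sgScramble replicate 1 or 2 or sgNlrc5 replicate 2, and that of Dnmt3c without sgScramble replicate 1 or sgNlrc5 replicate 1, and without sgScramble replicate 2 Dnmt3c fell under the filter. Without the intensity trend 4 of the list were called.

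In tumours 3 of 24 tested genes rose and 2 fell, together 20.8%, against 39.4% of all genes, with a median of 0.16. Lin28b, an inhibitor of let-7 microRNA maturation in germ and embryonic cells, averaged 99.3 ± 8.92 with sgScramble and 22.2 ± 4.05 with sgNlrc5 (normalised counts, SD, n = 4 per guide), a fall in all 4 sgNlrc5 tumours (-2.13 ± 0.21, limma adjusted p = 3.3e-05). Tdrkh, which tethers PIWI proteins at mitochondria, fell from 526 to 346 (-0.60 ± 0.11). Cpeb1 rose from 368 to 866 (1.28 ± 0.29), as it had in culture. Nxf3 rose from 8.55 to 25.1 (1.46 ± 0.46), having passed the filter only through the sgNlrc5 group, and Hspa2, a testis-enriched chaperone, from 187 to 242 (0.37 ± 0.12). Those last 2 calls were fragile: Nxf3 lost its call without sgScramble replicate 3 or sgNlrc5 replicate 4, and Hspa2 without sgScramble replicate 1 or 4 or sgNlrc5 replicate 4, so that 3 genes were called without sgNlrc5 replicate 4.

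A list of 53 genes that write, read, erase or act beside DNA methylation was read in the same way. In TDM culture 0 of 52 tested genes were called by limma, against 0.517% of all genes, and voom called 0. At that share 0 calls are likely in any list of this size, so nothing is read from them. An unadjusted p under 0.05 was found for 4 of the 52, beside 1084 of all 11989. Their median log2 difference was -0.0059, and they ran from -0.25 to 0.44. Dnmt1, the maintenance methyltransferase, averaged 2801 and 2815, and Dnmt3a, a de novo methyltransferase, 1602 and 1663.

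In TDMa culture 9 of 53 rose and 7 fell, together 30.2%, against 34.2% of all genes. Dnmt1 rose from 4354 to 5179 (0.25 ± 0.034), Dnmt3a from 1559 to 1827 (0.23 ± 0.047) and Cdca7l, a relative of the HELLS cofactor CDCA7, from 868 to 1105 (0.35 ± 0.060). The dioxygenases Tet1 and Tet2, which oxidise 5-methylcytosine, rose by 0.56 (323 to 475) and 0.70 (115 to 188), and the stress genes Gadd45a and Gadd45b, linked to demethylation, fell by 1.07 and 0.92. Among PRC1.6 subunits Mga and Rybp rose by 0.21 and 0.29 and E2f6 fell by 0.16. Smchd1, which silences genes on the inactive X, rose by 0.24, and Atf7ip, a partner of SETDB1, fell by 0.27. Among the other H3K9 and HUSH repressors Ehmt2 rose by 0.13 and Morc2a fell by 0.23. The called methyl-CpG binders, Mbd3 and Zbtb4, fell, Mbd3 by 0.13. Without the intensity trend 4 of the list were called, 2 in each direction. Over all genes of this table the share of calls that were higher was 50.5%, and it was 38.8% when libraries were scaled to equal sums of normalised counts.

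In tumours 2 of 53 rose and 15 fell, where 19.7% of all tested genes were called higher and 19.7% lower. Together these calls were 32.1% of the list, against 39.4% of all genes. The median of the list was -0.21 beside -0.010 for all genes. Mphosph8, a HUSH complex reader of H3K9 methylation, fell by 1.61 (552 to 180), Tet1 by 1.10 (453 to 211), Zmym2 by 0.87, Tet3 by 0.76 and Hells, a remodeller needed for DNA methylation, by 0.77. The PRC1.6 and deacetylase genes Cbx3, Hdac2 and Rybp fell by 0.64, 0.71 and 0.43, while L3mbtl2, another PRC1.6 subunit, rose by 0.34. Gadd45b rose by 1.06 (87.4 to 182). Mbd4, Smchd1 and Suv39h2 fell by 0.87, 0.64 and 0.47, and the methyl-CpG binders Mbd1 and Mbd2 by 0.29 and 0.44. These falls stood beside the higher T cell, macrophage, fibroblast and endothelial marker sums given above, whose part in them was not tested.

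The genes whose values followed each of the 4 germline genes listed in all tables were sought among 11334 genes tested throughout. The measure was Pearson's correlation over the 16 libraries of log2(normalised count + 1), centred on each table's mean, so the points share libraries and tables and the guide contrast. Closest to Tex101 were Gm16091 (0.94), Sod1 (0.93) and Mtfr1l (0.91). Closest to Rhox5 were B9d1 (0.96), Limd2 (0.93) and Mrpl27 (0.92). Tdrd9 was nearest to Man2c1 and Plxnb2 (0.85 each) and Stim1 (0.84), and Xlr3c to Itpripl2 (0.97), Cxcl10 (0.96) and H2bc21 (0.95). Tdrd9 was under the filter in both cultures and Tex101 in TDMa culture, so those points lie near the detection limit. The guide differences of Rhox5 and Xlr3c in TDMa culture, -3.85 and -4.48, enter their correlations. All these correlations are descriptions of pattern, and no test was made on them.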

How the data were processed

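RNA-seq values of 16 libraries were used. Per the file headers and labels, the authors deposited log2 values of DESeq2-normalised counts plus 1, with a separate table for each culture line and for the tumours. Tools and builds in the submitters' processing notes, given without roles, are STAR 2.7.10a, FastQC 0.12.0, DESeq2 1.36.0, GRCm39 and mm39. Libraries were made with a directional kit, per the labels' protocols, while the counting tool, annotation and strand setting are not given in the sources used here.

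Values were returned to the count scale as normalised counts. 100% of values up to 2000 multiples of a library's step lay within 0.1 of a whole read, and reads were recovered from those steps. Each table had been normalised alone and was fitted alone. The fit used limma 3.58.1 under R 4.3.3 on log2(normalised count + 1), with an intensity trend, and kept genes whose normalised counts averaged 10 or more. Tests were two-sided, and p-values were adjusted by Benjamini-Hochberg with 0.05 as the threshold. Errors of log2 differences are standard errors. Such differences understate the change of low genes. The fit was tested only on simulated counts, with the same small spread between replicates in every table and few changed genes. That test says little about tumours, where genes such as Rhox5 spread far more.

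The 8 genes and all lists were chosen with earlier results of these data known. Named genes were the 8, Nlrc5, their relatives by name, up to 4 called genes per sublist and table by smallest p, and the 3 genes most like each of the 4 listed throughout. Nxf3 and Zcwpw1 levels across lines, and Piwil4, were singled out after their values were seen. Alternatives covered the pseudocount, filter, scaling, trend, voom, replicate block, left-out libraries and, added after seeing the data, tumours scaled to melanoma markers.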

Additional observations from a re-analysis of the deposited data

Results flagged for a closer look

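Single tumours stood apart from the other 3 of their group, by Dixon's criterion, in 6 of 66 groups of 4 examined, where chance alone marks about 1 in 20. With sgNlrc5, replicate 4 was the highest for Nxf3, at 45.2 normalised counts (next 19.05), and for Rhox2d, at 35.2 (next 16.3). With sgScramble, replicate 1 was the highest for Hells, at 954 (next 749), and for Tdrkh, at 629 (next 502), and the lowest for L3mbtl2, at 866 (next 993). Rhox2h was highest in sgScramble replicate 3, at 5.96 (next 0.95). That group had only 0, 1, 6 and 1 reads and the gene was under the filter, so nothing is read from its mark.

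6 genes are listed here for which every sgNlrc5 library lay above every sgScramble library in one setting and below in another. They are not a full count: Xlr, Zcwpw1, Piwil2, Prdm9, Gadd45a and Hspa2, for example, also separated in opposite directions between TDM and TDMa culture. So did Rybp and Smchd1, which are listed below only for culture against tumours. Hspa2 also separated in opposite directions between TDMa culture and tumours. Separated groups were common, at 19.3% of tested genes in each direction in TDM culture and 33.3% upwards and 33.0% downwards in TDMa culture. The share of all genes that reversed is not given, so nothing is read from the number. The difference between settings was not tested. Of the 6, those listed for TDM against TDMa culture were Rhox5, with log2 guide differences of 0.11 and -3.85, and Xlr3c, with 0.085 and -4.48. Without sgNlrc5 replicate 1 the TDM differences of Rhox5 and Xlr3c were only 0.029 and 0.019. Those listed for TDMa culture against TDMa tumours were Tet1 (0.56 and -1.10), Gadd45b (-0.92 and 1.06), Rybp (0.29 and -0.43) and Smchd1 (0.24 and -0.64).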

How the results depend on the processing

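Of the guide differences of the 8 genes under each alternative, 213 kept their size within the spread of replicates and 5 moved with a pseudocount of 5. The 1 that reversed was Lncenc1 in tumours, at 0.031 without sgNlrc5 replicate 2, in a range from -0.58 over the left-out tumours. Many of the 213 could not do otherwise. The filter, the trend and the replicate block leave a difference itself unchanged. With 2 culture libraries per guide, leaving a library out cannot shift it beyond the spread of replicates. Genes called in TDM culture numbered 62, but 2 without the intensity trend and 72 to 130 with a library left out, reaching 102 without sgScramble replicate 1 and 130 without sgNlrc5 replicate 2. In TDMa culture they numbered 4156 and 1581 without the trend. Without the trend TDMa culture had 4 other germline genes and 4 silencing genes called. With a tumour left out, 3 to 5 other germline genes were called. The cause of these shifts was not tested. Tdrd9 in both cultures, Tex101 in TDMa culture and Tex19.1 in tumours were under the filter, with 6 to 30 reads in a group.

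With the replicate number as a block, 122 genes were called in TDM culture, and Hspa2, Mbd1, Rhox2d and Suv39h2 lost their calls in tumours. Same-numbered libraries did not deviate together (correlations of -0.024 in TDM culture, -0.015 in TDMa culture and -0.21, 0.11, -0.18 and -0.017 in tumours), so the numbers do not show a pairing.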

Other observations

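Piwil4, a PIWI protein that guides DNA methylation in fetal male germ cells, stood at 1.1, 0, 3.0 and 0 normalised counts in sgScramble tumours and at 15.04, 6.4, 19.9 and 19.09 in sgNlrc5 tumours. The groups did not overlap, but the gene was under the filter and was chosen after its values were seen.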
